A study of Dorcoceras hygrometricum with 51 samples.

Results

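Early light-induced proteins (ELIPs) are pigment-binding proteins of the thylakoid membrane that belong to the same superfamily as the light-harvesting antenna proteins. In other plants they appear when chlorophyll is being made, broken down or over-excited, are thought to hold free chlorophyll so that it does not pass light energy to oxygen, and are known for high transcript levels in drying leaves of resurrection plants. Boea hygrometrica is a resurrection plant that keeps its chlorophyll while dry, so its leaves go on absorbing light when photosynthesis has stopped. The 10 genes described here are 9 genes of the deposited genome annotation (KZV27934, KZV38649, KZV28384, KZV20247, KZV49260, KZV34379, KZV16213, KZV50303 and KZV29250) and 1 gene added by transcript assembly (BGI_novel_G001158), out of 26693 genes in the expression table. They were taken by name from the 19 genes that carry an ELIP annotation, with their levels in these libraries already known, in particular those after slow soil-drying.

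All plants were greenhouse-grown, well-watered seedlings of 3 months at the start, and leaves were collected in 13 groups of 3 biological replicates. SD were plants after slow drying of the soil, A were the plants rehydrated after it (acclimated), and F were fresh plants that had not been acclimated. AD and FD were acclimated and non-acclimated plants after rapid air-drying. A4 and F4 had grown on for 4 weeks and A18 and F18 for 18 weeks with and without acclimation, and A4D, F4D, A18D and F18D were their rapidly air-dried counterparts. Each replicate pooled about 45 leaves from at least 15 plants, so no value belongs to a single plant, and in such bulk leaf RNA a smaller number of cells of a type and less transcript per cell cannot be told apart. The study asked how a first slow drying prepares the plants for a later rapid one and for how long.

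Levels are FPKM (fragments per kilobase of transcript, scaled to the mapped fragments of the library), which allow genes of different length to be compared. Of the 26693 genes 18736 reached 1 FPKM in 3 or more libraries and were tested, among them all 10 ELIP genes. Changes are given as log2 fold changes of log2(FPKM + 1), X/Y meaning X over Y, and understate the change of low genes. A gene is said to be called where limma, fitted to all 39 libraries, gave a change of 1 or more in size with a Benjamini-Hochberg adjusted p up to 0.05 over all tested genes. The leaf transcripts of the small chain of rubisco, of rubisco activase and of the antenna proteins were high in every hydrated group, although the 14 antenna genes summed to 3905 to 7695 FPKM in F18 against 45701 to 88689.6 FPKM in F. Library A4 replicate 2 was least like its own group (mean Pearson r 0.851 over tested genes, against up to 0.967 elsewhere). In the 6 rapid drying comparisons the median log2 fold change over all tested genes was -0.67 to -0.33 as deposited and -0.17 to -0.01 after median-ratio scaling of the libraries, and for these 6 comparisons shares of called genes are given both ways. In the summed FPKM of the 10 ELIP genes A18 replicate 3 (4991, against 1036 and 1166) and A18D replicate 3 (21956, against 1227 and 4451) lay far above the other libraries of their groups. F18D replicate 3 (507, against 6330 and 4394) lay far below, so the 18-week results were also computed without these 3. Single profiles could differ from the sum. Replicate 1 was the low one apart for KZV29250 in A18D (130, 575 and 794 FPKM) and for KZV49260 in A18 (20.3, 74.1 and 103 FPKM).

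The 10 genes fall into 3 groups by the best match of their product in the deposited annotation, which names sequences of other plants and says nothing of their order of descent. The isoform X2 group (best match isoform X2 of the sesame protein) holds KZV20247, KZV27934, KZV28384 and KZV38649. The isoform X1 group holds KZV49260, KZV34379, KZV16213 and BGI_novel_G001158, and the chloroplastic-like group holds KZV50303 and KZV29250. The chloroplastic-like group was formed by pooling different best-match sequences, whereas each isoform group rests on a single one. KZV49260, KZV34379 and KZV16213 carry the same FPKM in all 39 libraries although they lie on 3 scaffolds, at 9717 to 10485 of KQ993118.1, 31713 to 32481 of KV005079.1 and 7010 to 7780 of KV019174.1. Fragments from near-identical copies cannot be assigned to one of them, but sequences were not compared here and near-identity was not tested. Because their values are the same, these 3 genes were counted as 1 profile and the 10 genes as 8 profiles. Summed levels and shares over the 10 genes count each of the 3. The 9 annotated genes lie on 9 different scaffolds, and 8 of them span 742 to 778 bp. KZV50303 spans 1748 bp (10401 to 12148 of KQ992484.1), with another ELIP gene, KZV50304, on the same scaffold at 17609 to 18351. Positions are those of the deposited table, whose genome build is not given in the sources read here.

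In fresh, non-acclimated plants the ELIP genes were expressed at low to moderate levels. KZV20247 was the highest, with 53.4, 38.7 and 40.2 FPKM in F, and KZV29250 the lowest by group mean, with 3.9, 4.3 and 6.76 FPKM. Together the 10 genes held 0.0169, 0.0166 and 0.0195% of the summed FPKM of the F libraries.

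After slow soil-drying all 10 stood among the most abundant transcripts of the leaf, from rank 5 to rank 78 of 26693 by group mean. Because their SD levels were known when they were chosen, the comparisons with SD are a description and carry no test. KZV20247 reached 19752, 11569 and 7661 FPKM in SD, which made it the fifth most abundant of all genes by group mean, and KZV38649 reached 9582, 9079.6 and 7356 FPKM, the seventh. KZV27934 had 5835, 5516 and 6346 FPKM and KZV28384 had 4843, 3572 and 4424 FPKM in SD. By group mean the isoform X2 genes were the 4 highest of the set. The chloroplastic-like genes had 3165, 4653 and 3409 FPKM for KZV50303 and 1376, 1564 and 941 FPKM for KZV29250. In the isoform X1 group SD replicate 1 was low, with 493, 2163 and 1741 FPKM for KZV49260 and 704, 2455 and 1902 FPKM for BGI_novel_G001158. The ratio of the SD mean to the F mean ran from 72.5 for KZV49260 to 888 for KZV27934, and no library of SD overlapped one of F in any of the 8 profiles. The 10 genes held 5.39, 4.95 and 4.09% of the summed FPKM in the SD libraries, and all 19 annotated ELIP genes 7.79% on average.

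**Figure D1:**
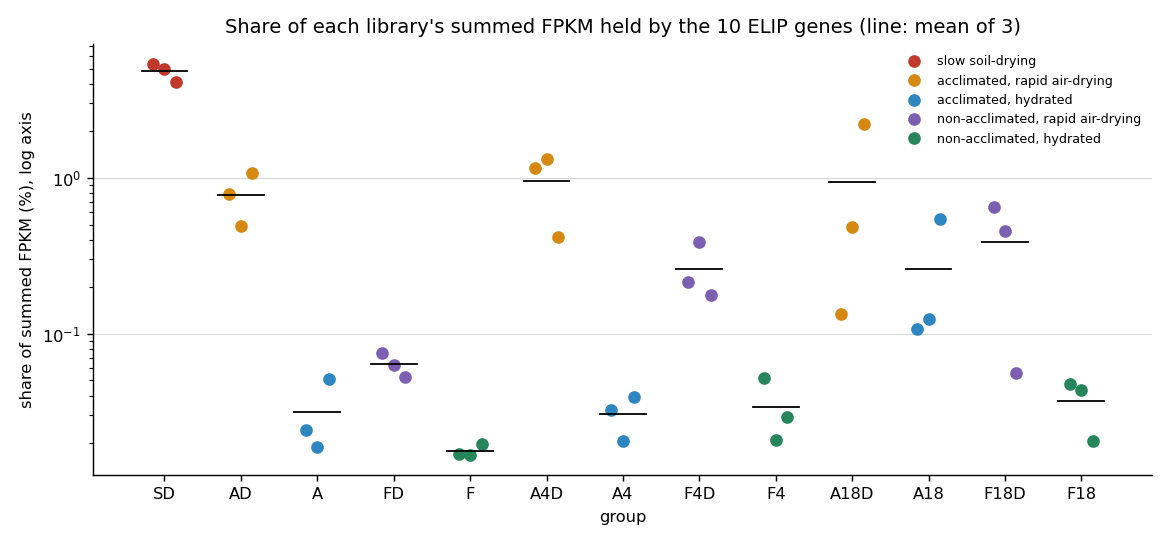
Share of each library's summed FPKM held by the 10 ELIP genes (percent, log axis) for the 3 libraries of each group, with the mean as a line. The share was 4.09 to 5.39% in SD and 0.0166 to 0.0195% in F, and at 18 weeks the libraries of A18D, A18 and F18D spread widely.

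After rehydration the levels were back near those of fresh plants. KZV28384 had 2.74, 8.32 and 13.8 FPKM in A, against 4843, 3572 and 4424 FPKM in SD, and KZV38649 had 1.82, 10.2 and 11.7 FPKM in A, against 9582, 9079.6 and 7356 FPKM in SD. Between acclimated and fresh plants (A/F) none of the 8 profiles was called by limma or had an unadjusted p under 0.05, and 0.0587% of all tested genes were called higher. KZV27934 had 16.7, 19.6 and 51.9 FPKM in A, against 5.45, 5.99 and 8.48 FPKM in F. In this gene, KZV29250 and KZV50303 every A library lay above every F library, and in KZV38649 every A library lay below, without passing the test. KZV20247 was raised in A replicate 3 alone, with 42.1, 41.9 and 220.4 FPKM in A and 53.4, 38.7 and 40.2 FPKM in F.

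Rapid air-drying of acclimated plants (AD/A) raised all 8 profiles, whereas 13.1% of all tested genes were called higher in this comparison (17.7% after median-ratio scaling of the libraries). KZV28384 rose most, with 1202, 638 and 1075 FPKM in AD, against 2.74, 8.32 and 13.8 FPKM in A, a log2 fold change of 6.87 (SE 1.13, adjusted p = 8.3e-06). The chloroplastic-like genes had the smallest SEs. KZV50303 had 1386, 768 and 1497 FPKM in AD, against 29.4, 15.6 and 33 FPKM in A, a log2 fold change of 5.50 (SE 0.69, adjusted p = 9.7e-08). KZV29250 had 626, 378 and 687 FPKM in AD, against 13.4, 8.37 and 14.7 FPKM in A, a log2 fold change of 5.41 (SE 0.65, adjusted p = 5.1e-08). In all 8 profiles each AD library lay above each A library.

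The other isoform X2 genes rose as well. KZV20247 had 2405, 1662 and 4008 FPKM in AD, against 42.1, 41.9 and 220.4 FPKM in A, a log2 fold change of 5.09 (SE 1.03, adjusted p = 1.4e-04). KZV27934 had 848, 433 and 1473 FPKM in AD, against 16.7, 19.6 and 51.9 FPKM in A (4.93, adjusted p = 0.0016). KZV38649 was the most scattered, with 28.9, 172 and 373 FPKM in AD, against 1.82, 10.2 and 11.7 FPKM in A (4.08, adjusted p = 0.0076). Without AD replicate 3 its log2 fold change was 3.29 and it was not called (adjusted p = 0.056). The isoform X1 genes rose least, with 245, 146 and 237 FPKM in AD, against 32.5, 19.2 and 36.3 FPKM in A, for KZV49260 (log2 fold change 2.80, adjusted p = 0.0052), and 272, 178 and 258 FPKM in AD, against 31.1, 8 and 17.9 FPKM in A, for BGI_novel_G001158 (3.73, adjusted p = 7.7e-04). By group mean the AD levels were below those of slow drying, with an SD mean 2.3 to 45.3 times the AD mean, the widest ratio being that of KZV38649.

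**Figure D2:**
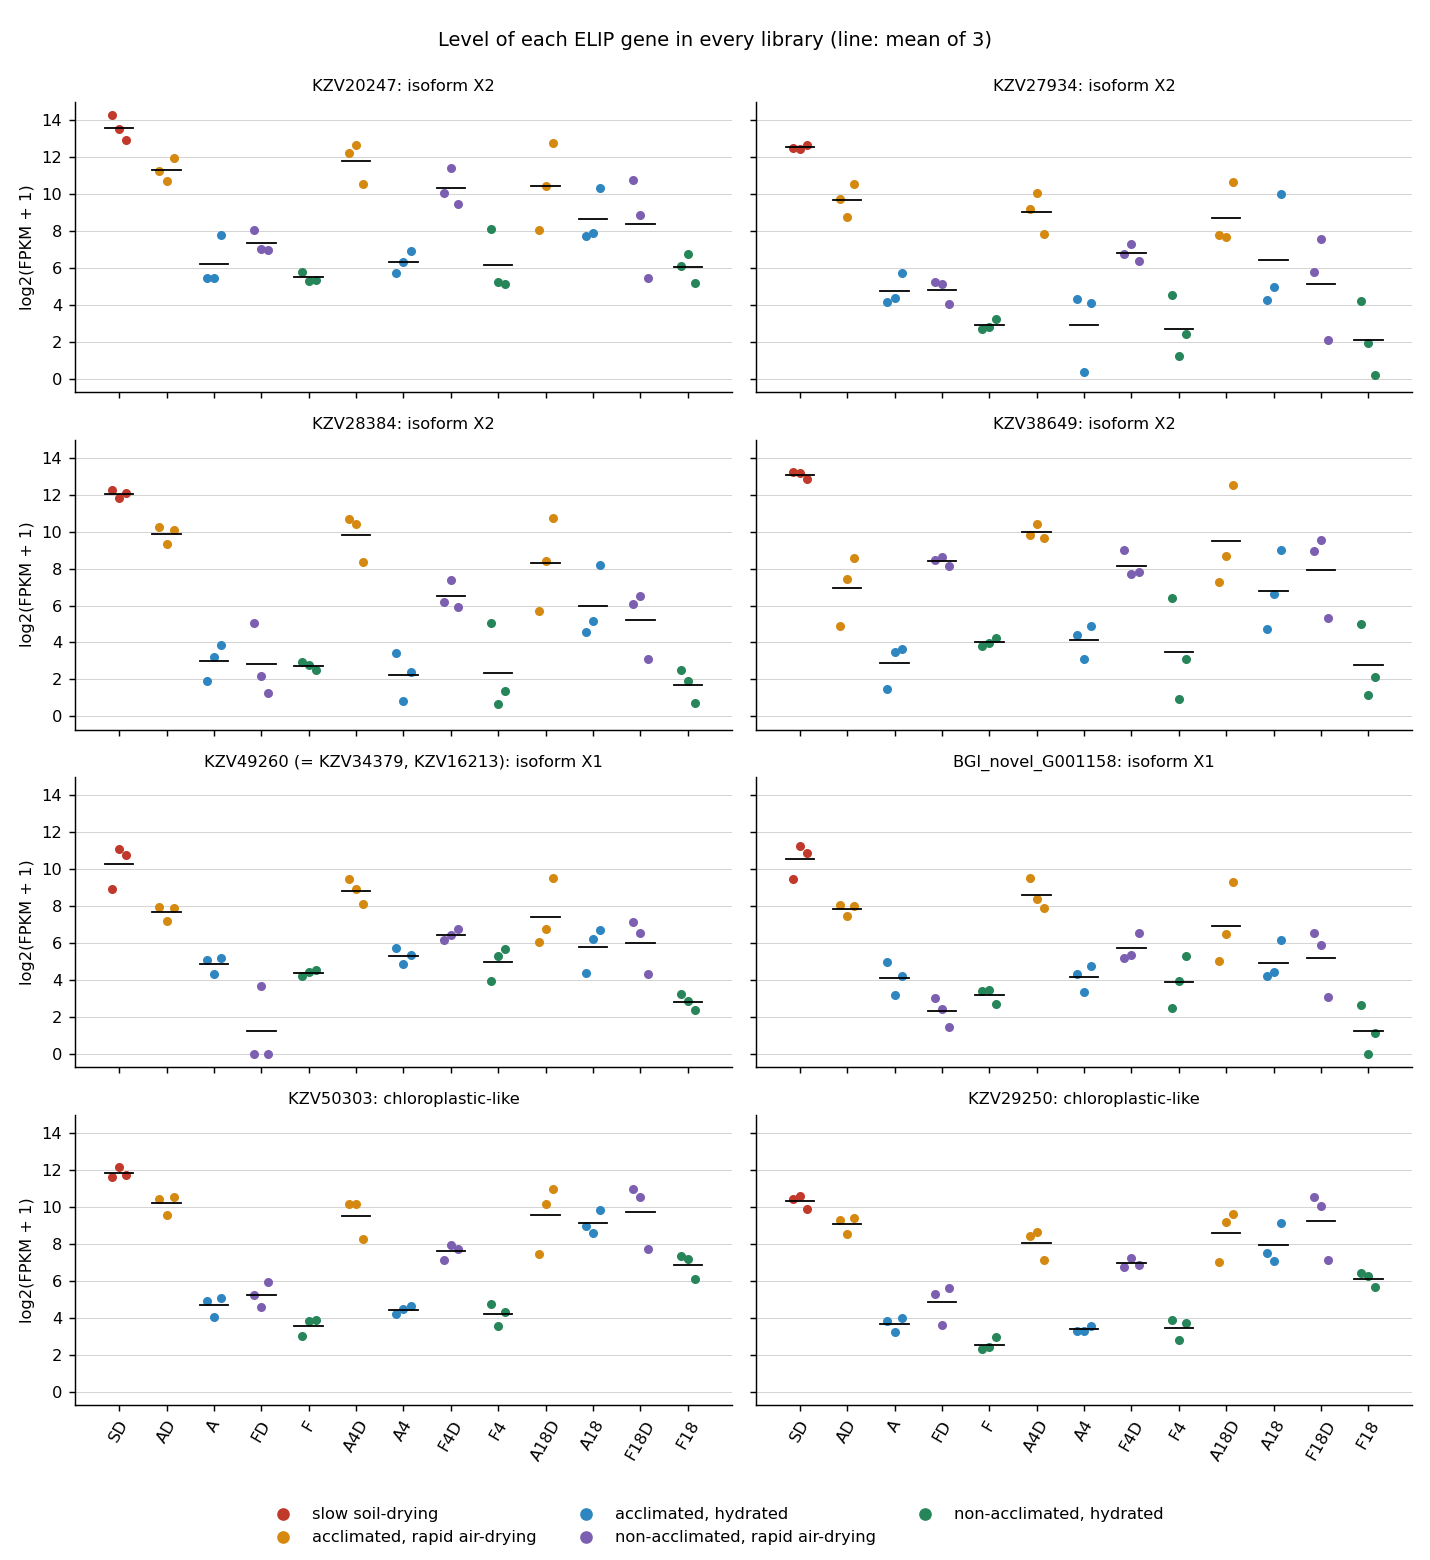
Level of each ELIP profile as log2(FPKM + 1) in the 3 libraries of each of the 13 groups, with the mean as a line and colours for slow drying, rapid drying and hydrated leaves of acclimated and non-acclimated plants. SD is the highest group in every panel, and KZV49260 is listed at 0 in 2 of the 3 FD libraries.

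Rapid air-drying of non-acclimated plants (FD/F) gave a mixed response, with 3 of the 8 profiles called higher, 1 called lower and 4 not called, against 13.2% of all tested genes called higher and 29.1% called lower (17% and 21.7% after median-ratio scaling). KZV38649 was the gene with the strongest rise, with 354, 399 and 283 FPKM in FD, against 13, 14.5 and 17.8 FPKM in F, a log2 fold change of 4.42 (SE 1.25, adjusted p = 0.0038). KZV29250 had 38.7, 11.4 and 48.5 FPKM in FD, against 3.9, 4.3 and 6.76 FPKM in F (2.31, adjusted p = 0.004). KZV50303 had 36.6, 22.7 and 61.6 FPKM in FD, against 7.08, 13.4 and 13.8 FPKM in F (1.67, adjusted p = 0.043). This last call was lost when any of F replicates 1 to 3, FD replicate 1 or FD replicate 3 was left out, with log2 fold changes of 1.32 to 1.83.

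The remaining isoform X2 genes were not called in FD/F. KZV20247 had 262, 128 and 126 FPKM in FD, against 53.4, 38.7 and 40.2 FPKM in F (log2 fold change 1.86, adjusted p = 0.13). KZV27934 had 36.9, 33.4 and 15.5 FPKM in FD, against 5.45, 5.99 and 8.48 FPKM in F (1.89, adjusted p = 0.22). In both genes all FD libraries lay above all F libraries. KZV28384, the gene with the largest rise in acclimated plants, had 32.6, 3.58 and 1.42 FPKM in FD, against 6.72, 5.77 and 4.71 FPKM in F, so that only FD replicate 1 exceeded the F libraries.

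The isoform X1 profile of KZV49260 fell, being listed at 0, 11.8 and 0 FPKM in FD, against 17.9, 20.4 and 22.3 FPKM in F (log2 fold change -3.17 (SE 0.82, adjusted p = 0.0017)). The size of this value depends on the pseudocount, and was -5.36 with a pseudocount of 0.1. BGI_novel_G001158 had 7.26, 4.51 and 1.76 FPKM in FD, against 9.65, 9.91 and 5.43 FPKM in F, and was not called (adjusted p = 0.44). Another gene with the same best match, BGI_novel_G000431, rose at the same time, with 119.9, 170.4 and 145 FPKM in FD, against 27.1, 33.1 and 45.5 FPKM in F (log2 fold change 2.03 (SE 0.64, adjusted p = 0.0088)). A listed 0 can be an estimate that failed where near-identical copies compete for fragments. The sum over all 5 genes with this best match, the 3 identical profiles counted each, was 127, 210.4 and 147 FPKM in FD, against 90.6, 104 and 118 FPKM in F, so the summed level was higher in FD while the KZV49260 profile was lower. Whether fragments were moved between these copies was not tested.

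**Figure D3:**
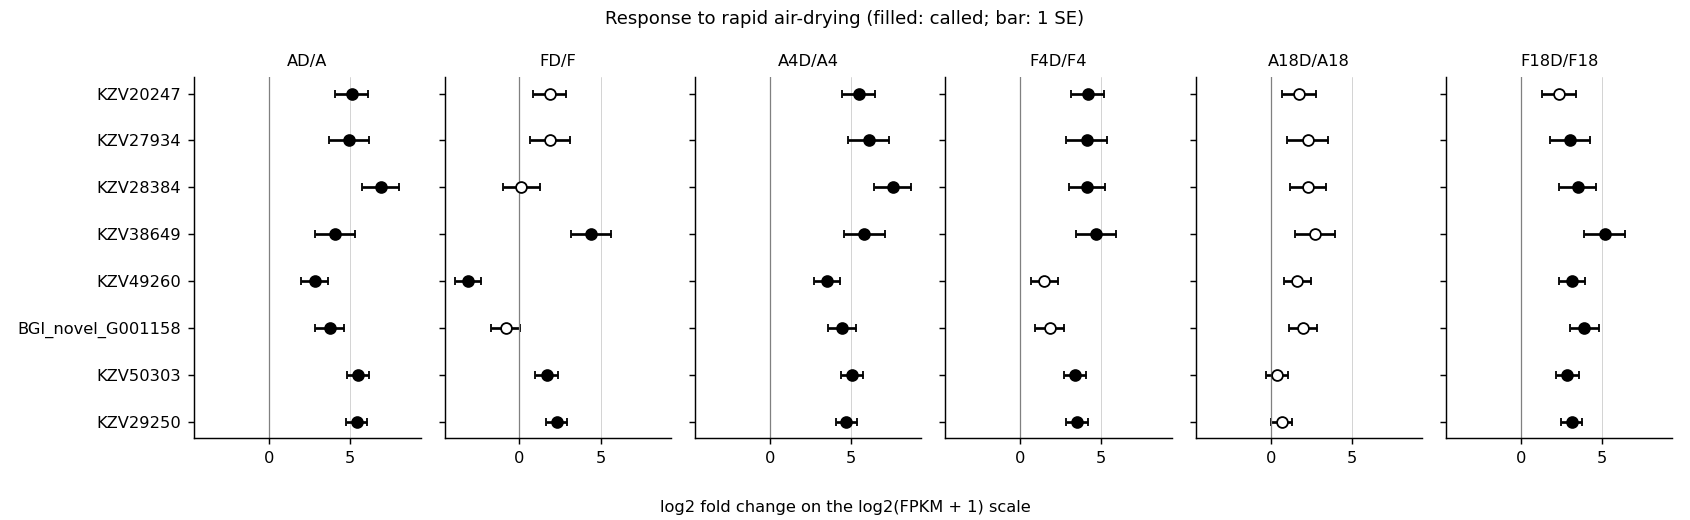
Log2 fold change of the 8 ELIP profiles in the 6 comparisons of rapidly air-dried with hydrated plants, with bars of 1 SE and filled points for called genes. All 8 points are filled in AD/A and in A4D/A4, 4 in FD/F (KZV49260 to the left of 0) and none in A18D/A18.

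The rapidly dried acclimated plants carried far more ELIP transcript than the rapidly dried non-acclimated ones (AD/FD), a comparison of the same AD and FD libraries as above. Of the 8 profiles 7 were called higher, against 6.89% of all tested genes (8.9% after scaling), and the count was 7 whichever single AD or FD library was left out. The 10 genes held 0.783, 0.49 and 1.06% of summed FPKM in AD and 0.0754, 0.0626 and 0.053% in FD. KZV28384 had a wide gap, with 1202, 638 and 1075 FPKM in AD, against 32.6, 3.58 and 1.42 FPKM in FD, a log2 fold change of 7.03 (SE 1.13, adjusted p = 3.0e-05). KZV49260 had another, with 245, 146 and 237 FPKM in AD, against 0, 11.8 and 0 FPKM in FD (6.45, adjusted p = 4.5e-07, and 8.69 with a pseudocount of 0.1, against 7.37 for KZV28384), and BGI_novel_G001158 had a log2 fold change of 5.54 (adjusted p = 2.4e-05). KZV20247, KZV29250, KZV27934 and KZV50303 were higher in AD by 3.96, 4.24, 4.87 and 4.93 on the log2 scale, with adjusted p of 0.0064, 1.6e-05, 0.0057 and 2.8e-06.

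KZV38649 was the exception. It had 28.9, 172 and 373 FPKM in AD and 354, 399 and 283 FPKM in FD, and the difference did not pass the test (log2 fold change -1.46 (SE 1.25, adjusted p = 0.46)), with AD replicate 3 inside the range of FD. Its high level in FD set it apart by eye from the other 3 isoform X2 genes, which had at most 262 FPKM in any FD library. Whether its response differs from theirs was not tested.

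The difference between both responses was tested as an interaction, that is the log2 fold change AD/A minus the log2 fold change FD/F. It was called for 5 of the 8 profiles, all with the larger rise in acclimated plants, against 4.4% of all tested genes in that direction (5.32% after scaling). KZV28384 had an interaction of 6.77 (SE 1.60, adjusted p = 0.0059) and KZV49260 one of 5.98 (SE 1.15, adjusted p = 7.1e-04), and with a pseudocount of 0.1 these were 7.11 and 8.21. BGI_novel_G001158 had an interaction of 4.58 (adjusted p = 0.017), KZV50303 of 3.83 (adjusted p = 0.011) and KZV29250 of 3.10 (adjusted p = 0.03). That of KZV29250 was no longer called when F replicate 3, A replicate 2, AD replicate 1, AD replicate 3 or FD replicate 2 was left out. For KZV20247 (3.22, adjusted p = 0.18), KZV27934 (3.04, adjusted p = 0.32) and KZV38649 (-0.35, adjusted p = 0.94) it was not called. In the isoform X1 group the interaction includes the low FD values described above.

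**Figure D4:**
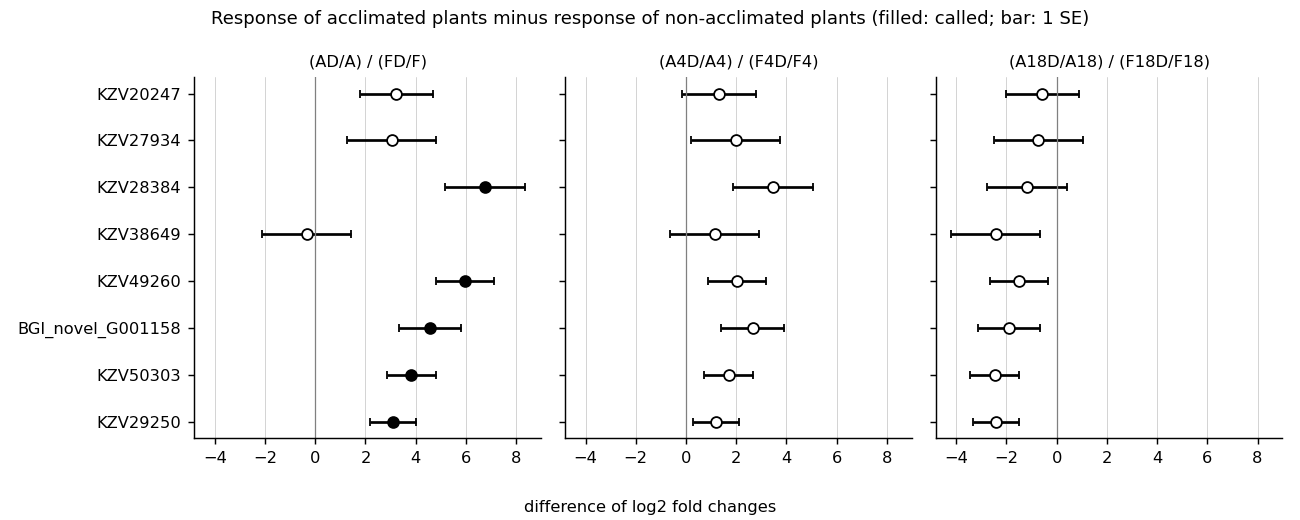
Response of acclimated plants minus response of non-acclimated plants to rapid air-drying, as a difference of log2 fold changes with bars of 1 SE, at the start, at 4 weeks and at 18 weeks. The 5 filled points at the start are the called profiles, and no point is filled at the later times.

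After 4 weeks of further growth the hydrated plants were again low, and no profile was called in A4/F4, A4/A or F4/F, nor had any an unadjusted p under 0.05 in limma. The share of all tested genes called higher was 0.0213%, 0.87% and 0.0267% in these 3 comparisons. KZV28384 had 9.7, 0.8 and 4.29 FPKM in A4 and 32.8, 0.6 and 1.56 FPKM in F4, and KZV38649 had 19.8, 7.64 and 28.9 FPKM in A4 and 84, 0.9 and 7.45 FPKM in F4. The isoform X2 genes were highest in F4 replicate 1.

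Rapid air-drying at 4 weeks raised ELIP transcripts in both kinds of plants. In acclimated plants (A4D/A4) all 8 profiles were called higher, against 10.4% of all tested genes (18.7% after scaling). The count was the same when any A4D or A4 library was left out. Of the 9 other annotated ELIP genes 5 were called higher in A4D/A4. KZV28384 had 1612, 1343 and 329 FPKM in A4D, against 9.7, 0.8 and 4.29 FPKM in A4, a log2 fold change of 7.58 (SE 1.13, adjusted p = 1.6e-06). KZV20247 had 4827, 6311 and 1482 FPKM in A4D, against 52.6, 77.7 and 120.3 FPKM in A4 (5.48, adjusted p = 4.8e-05). The isoform X1 profile KZV49260 had 700.5, 494 and 274 FPKM in A4D, against 52.2, 28.3 and 39.7 FPKM in A4 (3.52, adjusted p = 5.6e-04). A4D replicate 3 was the lowest A4D library in all 8 profiles, yet above every A4 library.

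In non-acclimated plants (F4D/F4) 6 of the 8 profiles were called higher, against 10.4% of all tested genes (19.2% after scaling). KZV38649 had 511, 205 and 222 FPKM in F4D, against 84, 0.9 and 7.45 FPKM in F4, a log2 fold change of 4.69 (SE 1.25, adjusted p = 0.002). KZV28384, not called in FD/F, had 72.2, 167 and 58.9 FPKM in F4D, against 32.8, 0.6 and 1.56 FPKM in F4 (4.13, adjusted p = 0.0027). KZV20247 had 1074, 2695 and 708 FPKM in F4D, against 273, 36.7 and 33.5 FPKM in F4 (4.16, adjusted p = 0.001). The chloroplastic-like genes rose by 3.38 (KZV50303) and 3.50 (KZV29250) on the log2 scale, and KZV27934 by 4.11. The isoform X1 profiles were the ones not called, with log2 fold changes of 1.50 for KZV49260 and 1.82 for BGI_novel_G001158, but both were called after scaling (2.39 and 2.69, adjusted p = 0.018 and 0.011).

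Between the dried plants at 4 weeks (A4D/F4D) no profile was called by limma, 4 had an unadjusted p under 0.05, and the fit called 0.00534% of all tested genes higher. The fitted log2 fold changes ran from 1.12 for KZV29250 to 3.31 for KZV28384, with SEs of 0.65 and 1.13. KZV28384 had 1612, 1343 and 329 FPKM in A4D and 72.2, 167 and 58.9 FPKM in F4D, with no overlap. KZV49260 did not overlap either, with 700.5, 494 and 274 FPKM in A4D and 72.5, 86.6 and 107 FPKM in F4D. In KZV50303, BGI_novel_G001158, KZV27934 and KZV38649 every A4D library also lay above every F4D library, whereas in KZV29250 and KZV20247 the groups overlapped. The interaction at 4 weeks was called for no profile, with 2 at an unadjusted p under 0.05 and 0.00534% of all tested genes called higher. The comparison of the interaction at 4 weeks with that at the start was not tested.

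At 18 weeks the hydrated plants themselves carried more transcript of the chloroplastic-like genes than at the start. KZV50303 had 494, 389 and 931 FPKM in A18, against 29.4, 15.6 and 33 FPKM in A, a log2 fold change of 4.45 (SE 0.69, adjusted p = 3.5e-05). KZV29250 had 184, 135 and 566 FPKM in A18, against 13.4, 8.37 and 14.7 FPKM in A (4.24, adjusted p = 3.4e-05). Non-acclimated plants did the same, with 159.7, 142 and 68.8 FPKM in F18, against 7.08, 13.4 and 13.8 FPKM in F, for KZV50303 (3.29, adjusted p = 6.9e-04), and 84.9, 77.2 and 49.3 FPKM in F18, against 3.9, 4.3 and 6.76 FPKM in F, for KZV29250 (3.57, adjusted p = 1.6e-04). Both genes were called in both comparisons whichever library was left out. The antenna transcripts summed to 17038 to 34312 FPKM in A18 and 51845 to 113710 FPKM in A, and to the sums given above in F18 and F, and their part in this result was not tested.

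Over all 8 profiles 3 were called higher in A18/A, against 6.39% of all tested genes (4.93% after scaling), and 2 were called higher in F18/F, against 13.5% (7.81% after scaling). The third in A18/A was KZV38649, with 25.5, 97 and 509 FPKM in A18, against 1.82, 10.2 and 11.7 FPKM in A (log2 fold change 3.90 (SE 1.25, adjusted p = 0.03)). It was not called without A replicate 1 (3.20, adjusted p = 0.14), A18 replicate 2 (3.98, adjusted p = 0.07) or A18 replicate 3 (2.79, adjusted p = 0.15), all by limma. In A18/A 5 profiles rose with an unadjusted p under 0.05 by limma. Among them KZV28384 (2.97, adjusted p = 0.069) and KZV20247 (2.44, adjusted p = 0.10) were not called. The isoform X1 profiles were not called either, at 0.91 for KZV49260 and 0.80 for BGI_novel_G001158. In F18/F no isoform X1 or X2 profile was called, but in both isoform X1 profiles every F18 library lay below every F library. KZV49260 had 8.53, 6.29 and 4.29 FPKM in F18, against 17.9, 20.4 and 22.3 FPKM in F (-1.56, adjusted p = 0.16 by limma). BGI_novel_G001158 had 5.3, 0 and 1.19 FPKM in F18, against 9.65, 9.91 and 5.43 FPKM in F (-1.92, adjusted p = 0.11). With a pseudocount of 0.1 BGI_novel_G001158 was called lower (-3.20, adjusted p = 0.029). KZV28384 had 4.74, 2.82 and 0.63 FPKM in F18, against 6.72, 5.77 and 4.71 FPKM in F. KZV20247 had 67.9, 107 and 35.8 FPKM in F18 (0.54).

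Between the hydrated plants of 18 weeks (A18/F18) 6 of the 8 profiles were called higher, against 2% of all tested genes (2.56% after scaling). KZV28384 had 22.8, 35 and 289 FPKM in A18, against 4.74, 2.82 and 0.63 FPKM in F18, a log2 fold change of 4.25 (SE 1.13, adjusted p = 0.016). KZV49260 had 20.3, 74.1 and 103 FPKM in A18, against 8.53, 6.29 and 4.29 FPKM in F18 (2.94, adjusted p = 0.021). BGI_novel_G001158 had 17.6, 21 and 69.9 FPKM in A18, against 5.3, 0 and 1.19 FPKM in F18 (3.68, adjusted p = 0.0079). In all 3 the groups did not overlap. KZV20247 (213, 236 and 1295 FPKM in A18 and 67.9, 107 and 35.8 FPKM in F18) and KZV29250 were not called, although their libraries did not overlap either. This count depended on single libraries. It was 3 without A18 replicate 2, 1 without A18 replicate 3, 0 without F18 replicate 2, 1 without F18 replicate 3, 3 without the 3 libraries that stood apart, and 0 when the 6 libraries were fitted alone.

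Rapid air-drying at 18 weeks gave scattered values. In acclimated plants (A18D/A18) no profile was called by limma and 2 had an unadjusted p under 0.05, against 6.43% of all tested genes called higher (11.6% after scaling). KZV20247 had 266, 1362 and 7025 FPKM in A18D and 213, 236 and 1295 FPKM in A18, and KZV38649 had 156, 415 and 5985 FPKM in A18D and 25.5, 97 and 509 FPKM in A18. The groups overlapped in all 8 profiles. The count was 5 without A18D replicate 1, 4 without A18 replicate 3, 1 without the 3 libraries that stood apart and 3 after median-ratio scaling. The chloroplastic-like genes, already high in A18, had the smallest log2 fold changes, 0.41 for KZV50303 (SE 0.69) and 0.69 for KZV29250 (SE 0.65).

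In non-acclimated plants at 18 weeks (F18D/F18) 7 of the 8 profiles were called higher, against 6.13% of all tested genes (11% after scaling), and 5 to 8 when a single library was left out. KZV38649 had 492, 749.9 and 38.8 FPKM in F18D, against 31.4, 1.2 and 3.46 FPKM in F18, a log2 fold change of 5.17 (SE 1.25, adjusted p = 0.0013). KZV29250 had 1484, 1060.1 and 140.3 FPKM in F18D, against 84.9, 77.2 and 49.3 FPKM in F18 (3.12, adjusted p = 3.2e-04), and KZV50303 had 1987, 1502 and 209 FPKM in F18D, against 159.7, 142 and 68.8 FPKM in F18 (2.87, adjusted p = 0.0012). For KZV29250 F18D replicates 1 and 2 lay within the range of SD, which no F18D library reached in the other 7 profiles. KZV20247, with 1737, 463 and 42.8 FPKM in F18D and 67.9, 107 and 35.8 FPKM in F18, was not called (adjusted p = 0.063), but was without F18D replicate 3 (3.79, adjusted p = 0.0034).

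Between the dried plants of 18 weeks (A18D/F18D) no profile was called by limma, 2 had an unadjusted p under 0.05, and 0.187% of all tested genes were called higher. The libraries overlapped in 7 of the 8 profiles, for example with 50.8, 343 and 1687 FPKM in A18D and 67, 89.4 and 7.47 FPKM in F18D for KZV28384. The isoform X2 gene KZV27934, whose A18D libraries all lay above its F18D libraries, had a log2 fold change of 3.56 (SE 1.25, adjusted p = 0.16), and the chloroplastic-like genes were lower in A18D by the fit, at -0.20 and -0.63, neither called. The interaction at 18 weeks was called for no profile, with 2 at an unadjusted p under 0.05, both negative, and 0.512% of all tested genes called higher and 0.288% lower. Without F18D replicate 3, or without the 3 libraries that stood apart, 2 profiles were called, both with the smaller rise in acclimated plants. The 3 libraries were picked by the ELIP levels themselves, and leaving out a low F18D library lowers this interaction by the choice itself. The share of all tested genes called in these fits was not computed, and no result is read from them.

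By group mean SD came first of the 13 groups in all 8 profiles, and the order below it differed between genes. For the isoform X1 profiles and KZV20247 the order after SD was A4D, A18D and AD, with overlapping ranges between these neighbours. For KZV27934 it was AD, A18D and A4D, for KZV28384 A4D, AD and A18D, again with overlap, and for KZV38649 A18D, A4D and F18D, of which A4D and F18D did not overlap. For the chloroplastic-like genes F18D came second, with means of 1233 ± 919 FPKM for KZV50303 and 895 ± 687 FPKM for KZV29250 (± standard deviation, n = 3), followed by AD and A18D. The lowest group was FD for KZV49260, F18 for BGI_novel_G001158 and KZV28384, A for KZV38649, and F for the other 4 profiles. Over the 13 group means of log2(FPKM + 1), the Pearson r between profiles ran from 0.845 to 0.993 within an annotation group (median 0.965, 8 pairs) and from 0.654 to 0.958 between groups (median 0.839, 20 pairs). The most alike pair was KZV50303 and KZV29250, and the least alike KZV49260 and KZV38649. These points share the same 39 libraries and the SD group lies far from the rest. Near-identical copies would also share fragments, so the values describe likeness and nothing else.

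The genes outside the ELIP annotation that were most like the mean profile of the 8 were picked by Pearson r over the 13 group means, among 4829 named genes with a mean of at least 10 FPKM. The first was KZV50591, a CDP-diacylglycerol synthase-like gene of phospholipid synthesis (r = 0.965), with means of 96.2 FPKM in SD, 73.2 in AD, 6.85 in FD and 3.73 in F. KZV48739, an aldose reductase, an enzyme that turns reactive aldehydes and sugars into alcohols, followed (r = 0.949), with 3532 FPKM in SD, 2990.3 in AD, 165 in FD and 19.3 in F. The next were KZV15173 (nodulation-signaling pathway 2 protein-like), KZV55656 (cysteine desulfurase 1, which supplies sulfur for iron-sulfur clusters), KZV28215 (TIC 22-like, of the chloroplast protein import machinery) and KZV57762 (1-Cys peroxiredoxin-like, a peroxide-removing protein best known from seeds). BGI_novel_G000934 (mechanosensitive ion channel), KZV55202 (MOTHER of FT and TF 1-like, a regulator of seed germination in Arabidopsis), KZV25445 (late embryogenesis abundant protein D-34-like) and KZV34855 (non-lysosomal glucosylceramidase) completed the 10, down to r = 0.913. KZV25445 had 2634 FPKM in SD, 1661 in AD, 402 in FD and 28.1 in F.

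**Figure D5:**
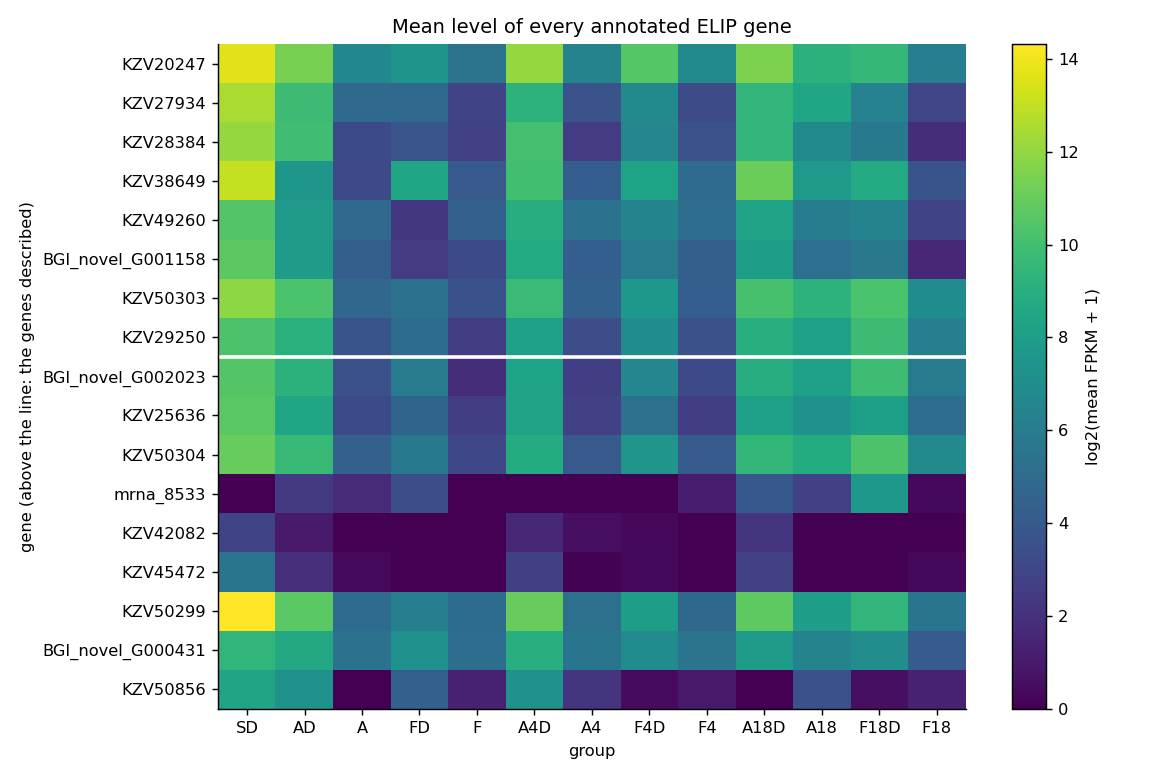
Mean level of every annotated ELIP gene as log2(mean FPKM + 1) in the 13 groups, with the 8 profiles described above the white line and the other 9 genes below it. KZV50299 is the brightest row in SD, and mrna_8533, KZV42082 and KZV45472 are near 0 in most groups.

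Of the other 9 annotated ELIP genes 5 were above 1 FPKM in all 39 libraries, and 4 were listed at 0 in 14 to 29 libraries. KZV50299 has the product name of a hypothetical protein, but its annotation names an Arabidopsis early light-inducible protein. In SD it was the highest ELIP of all, with 21228, 20636 and 19637 FPKM, against 29.6, 31.4 and 38.1 FPKM in F. In F and in AD it lay below KZV20247 by group mean (33.1 against 44.1 FPKM and 1619 against 2692 FPKM). It had 1603, 1169 and 2086 FPKM in AD and 106, 53.1 and 53 FPKM in FD (AD/FD log2 fold change 4.54 (SE 0.78, adjusted p = 7.8e-05)), and an interaction at the start of 4.76 (adjusted p = 0.0051). It was the 1 of these 9 genes whose interaction was called. Of the 9, 6 were called higher in AD/A, against 13.1% of all tested genes, 4 in FD/F, against 13.2%, 5 in A4D/A4, against 10.4%, and 4 in F4D/F4, against 10.4%. In F18D/F18 5 were called higher, against 6.13%, in AD/FD 4, against 6.89%, and in A18D/A18 1, against 6.43%, a share near that of all tested genes. None was called lower in any of these 7 comparisons. After median-ratio scaling the counts were 5 in F4D/F4 and 2 in A18D/A18 (against 19.2% and 11.6% of all tested genes) and the same as above in the other 5.

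KZV50304, BGI_novel_G002023 and KZV25636 belong to the pooled chloroplastic-like group, and they were also called higher in A18/A and F18/F. After scaling KZV25636 was not called in F18/F (log2 fold change 2.00, adjusted p = 0.077). KZV50304, next to KZV50303 on the same scaffold, had 2256, 1271 and 248 FPKM in F18D, against 154, 123 and 58 FPKM in F18 (log2 fold change 3.10, adjusted p = 6.8e-04). BGI_novel_G002023 had 547, 432 and 794 FPKM in AD, against 86.2, 19.9 and 69.9 FPKM in FD (3.50, adjusted p = 5.0e-04), and KZV25636 had 379, 207 and 464 FPKM in AD, against 25.7, 17.7 and 26.2 FPKM in FD (3.80, adjusted p = 0.0011). With KZV50303 and KZV29250, 5 of the 6 genes of this group were called higher in both A18/A and F18/F as deposited. The sixth, mrna_8533, listed at 0 in 28 libraries, was not called, with log2 fold changes of 0.66 and 0.25. Of all tested genes 6.39% were called higher in A18/A and 13.5% in F18/F (4.93% and 7.81% after scaling). The share of all tested genes called in both was not computed. After scaling KZV50299, outside this group, was called higher in A18/A (2.81, adjusted p = 0.013 by limma) and not in F18/F (-0.08). BGI_novel_G000431, of the isoform X1 match, did not differ detectably between AD and FD, with 339.7, 305 and 542 FPKM in AD and 119.9, 170.4 and 145 FPKM in FD (1.41, adjusted p = 0.12).

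KZV50856, of the isoform X2 match, was erratic, listed at 1.51, 922 and 46.4 FPKM in SD and 242, 0 and 240.0 FPKM in AD, against 0, 0 and 0 FPKM in A. KZV42082 never exceeded 11.5 FPKM and KZV45472 was highest in SD, with 0, 79.8 and 57.1 FPKM. The transcript mrna_8533, whose full name holds the scaffold of KZV50303, was listed at 0 in 28 of 39 libraries and at 595 FPKM in F18D replicate 2.

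The other genes of pigment binding and turnover were described as 5 lists formed from the annotation text, with counts over the tested genes of each. Over all tested genes more were also called lower than higher in each of the 6 rapid drying comparisons as deposited, the shares being 26.2% lower and 13.1% higher in AD/A and 29.1% lower and 13.2% higher in FD/F. At 4 weeks they were 35.5% lower and 10.4% higher in A4D/A4, and 35.9% lower and 10.4% higher in F4D/F4. At 18 weeks they were 20.6% lower and 6.43% higher in A18D/A18, and 30.2% lower and 6.13% higher in F18D/F18. After scaling the shares called lower were 20.4% in AD/A, 21.7% in FD/F, 23% in A4D/A4, 21.1% in F4D/F4, 9.77% in A18D/A18 and 9.82% in F18D/F18, and in both 18-week comparisons more genes were then called higher than lower.

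The antenna proteins, which bind most of the chlorophyll of the leaf, were called lower in 14 of 14 genes in AD/A and in 13 of 14 in FD/F, with none higher. Their median log2 fold change was -3.98 in AD/A and -4.00 in FD/F, beside -0.33 and -0.45 over all tested genes. In A4D/A4, F4D/F4 and A18D/A18 all 14 were called lower, and in F18D/F18 12 were, with medians of -4.50, -5.44, -3.35 and -1.82. After scaling 13 were called lower in A18D/A18, and 6 lower and 2 higher in F18D/F18 (median -1.07). KZV23305, annotated as chlorophyll a-b binding protein 4, had 41.7 ± 14.1 FPKM in AD and 6571 ± 1757 FPKM in A, a log2 fold change of -7.28. KZV22756, annotated as CP24, had 65.7 ± 23.7 FPKM in AD and 8679 ± 3020.0 FPKM in A (-7.03), and 101 ± 30.7 FPKM in FD and 5887 ± 1966 FPKM in F (-5.84) (± standard deviation over 3 libraries here and for the genes below). BGI_novel_G002182 was listed at 0 in all FD libraries and averaged 7101 ± 3553 FPKM in F. Of the 14 genes KZV31410 and KZV46797 carry the product match of a peroxisome biogenesis factor and of a receptor-like kinase.

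The stress proteins related to the antenna, like the ELIPs, belong to its superfamily. Of 3 genes all 3 were called lower in AD/A, FD/F, A4D/A4, F4D/F4 and A18D/A18, and 1 in F18D/F18, a share near that of all tested genes. After scaling 2 were called lower in FD/F and none in F18D/F18, and as deposited the list had medians of -2.85 in AD/A and -2.01 in FD/F. KZV33028 and KZV16554, both annotated as the photosystem II 22 kDa protein that switches on the release of excess light energy as heat, had 115 ± 91 and 412 ± 391 FPKM in AD, against 708 ± 256 and 2001 ± 864 FPKM in A. KZV14115, a stress enhanced protein 2 gene, had 18.7 ± 9.72 FPKM in FD, against 191 ± 30 FPKM in F (log2 fold change -3.40), and KZV33028 changed by -2.01 in FD/F.

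Of the 18 chlorophyll synthesis genes 13 were called lower and 1 higher in AD/A and 11 lower and 1 higher in FD/F, shares called lower above those of all tested genes (medians -2.64 and -1.86). In the other 4 rapid drying comparisons 10 to 15 were called lower and 0 or 1 higher. After scaling, with 17 of the genes passing the filter, 11 were called lower in AD/A, 10 in FD/F and 5 to 11 in the other 4. KZV52218, protochlorophyllide oxidoreductase C, which makes chlorophyllide in the light, had 19.7 ± 17.5 FPKM in AD, against 728 ± 69.3 FPKM in A (-5.54). KZV27385, the magnesium-protoporphyrin ester cyclase, changed by -5.03 in AD/A and -3.46 in FD/F. The gene called higher in AD/A was KZV51051 (1.52), an uncharacterised chloroplast protein, and that in FD/F was KZV15164 (3.54), whose product name is that of a wall-associated receptor kinase. KZV17749, which changed by -4.04 in FD/F, is named as a reductase of isoprenoid synthesis.

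Of the 22 chlorophyll breakdown genes 3 were called higher and 8 lower in AD/A and 3 higher and 9 lower in FD/F (medians -0.40 and -0.66), and 2 or 3 higher and 7 to 12 lower in the other 4 comparisons. After scaling 2 to 5 were called higher and 3 to 8 lower. The counts called higher are near the shares of all tested genes and those called lower near or above them, and no result about the list is read from either. KZV42127, a STAY-GREEN-like gene whose product takes magnesium out of chlorophyll, rose, with 514 ± 62.2 FPKM in AD, against 13.8 ± 0.505 FPKM in A (5.11), and 522 ± 78.2 FPKM in FD, against 13.7 ± 7.28 FPKM in F (5.28). KZV31980, a pheophytinase, which removes the phytol tail, had 988 ± 107 FPKM in AD, against 119 ± 17.4 FPKM in A (3.05), and 1404 ± 120.5 FPKM in FD, against 136 ± 17.5 FPKM in F (3.37). KZV17359 (STAY-GREEN LIKE) changed by -5.19 in AD/A and -4.06 in FD/F on the log2 scale, and KZV25950 (chlorophyllase-2) fell by 3.65 in AD/A. BGI_novel_G000625, an uncharacterised gene that the annotation text puts in this list, was listed at 0 in FD and averaged 8.55 ± 4.23 FPKM in F.

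The last list holds 13 genes of the xanthophyll cycle, which interconverts pigments involved in quenching excess light, and of other carotenoid steps. Of these 13 genes 7 were called lower in AD/A with none higher, and 7 lower and 2 higher in FD/F (medians -1.30 and -1.45). In the other 4 comparisons 5 to 8 were called lower and 0 or 1 higher. The counts called higher are near or below the shares of all tested genes and are no result about the list. Of all tested genes 26.2% were called lower in AD/A and 29.1% in FD/F. The 5 called lower in F18D/F18 are near the share of all tested genes, 30.2%. After scaling 5 were called lower in AD/A, 6 in FD/F and 3 to 6 in the other 4. KZV31649, a zeaxanthin epoxidase, changed by -3.21 and KZV37303, a violaxanthin de-epoxidase, by -2.82 in AD/A. In FD/F KZV33169, named as zeaxanthin epoxidase-like, rose to 38.9 ± 21.4 FPKM in FD, against 1.83 ± 0.983 FPKM in F (3.75), and KZV27570, a beta-carotene hydroxylase, changed by 1.20. KZV31650, another zeaxanthin epoxidase, and KZV52014, lycopene epsilon cyclase, changed by -2.52 and -2.03 on the log2 scale in FD/F. No test compared any of these lists with the ELIP genes.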

How the data were processed

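Leaf RNA of 39 libraries (13 groups of 3 biological replicates) was sequenced as paired reads on an Illumina HiSeq instrument. The authors aligned the reads with HISAT, assembled transcripts with StringTie 1.0.4, aligned reads to the resulting transcripts with Bowtie2 2.2.5 and estimated FPKM with RSEM, and the deposited FPKM were used unchanged. Versions of HISAT and RSEM are not given in the sources used here. FPKM hold no fragment numbers, and none were recovered here, so the depth behind each value is unknown and no counting interval is given. RSEM divides fragments among similar copies, which can move expression between near-identical ELIP genes.

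The authors also deposited promoter methylation as a fraction per gene (BSMAP, up to 2 mismatches, promoters of 2 kb, 12 libraries pooled over the replicates of a group and none for FD). These tables also carry an expression column. Over genes it followed the mean F level of the expression table when the gene tags were moved by 1 (Pearson r 0.935, 15579 genes) and not as deposited (r 0.0776, 12745 genes), so no methylation value of an ELIP gene is given.

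Genes of at least 1 FPKM in 3 or more libraries were fitted as 13 group means of log2(FPKM + 1) with limma 3.58.1 (R 4.3.3, trended empirical Bayes), and p-values were adjusted by the Benjamini-Hochberg method over the 18736 genes. Comparisons with SD are described without a test. The fit was tested on simulated data. Replicates pool many plants, so p-values measure the spread between pools. The members and lists were chosen with earlier results of these data known. Named genes are the 10 members, every other annotated ELIP gene, the 10 most alike named genes, and from each list the 2 strongest called rises and falls in AD/A and in FD/F. The genes KZV31410 and KZV46797 were named after their values were seen. Alternatives were another pseudocount, no filter, median-ratio scaling, no minimum fold change, a replicate block, fits of the compared libraries alone, each library left out in turn and, chosen after seeing the data, the omission of 3 libraries at 18 weeks and the scaled counts of the lists and the other ELIP genes.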

Additional observations from a re-analysis of the deposited data

Results flagged for a closer look

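The response to rapid air-drying differed between acclimated and non-acclimated plants at the start for 6 of the 17 profiles of all annotated ELIP genes. The test was of the difference itself, AD/A minus FD/F in the limma fit. The other 11 profiles were not called, and 4.4% of all tested genes were called higher (5.32% after scaling). On the log2 scale the difference was 6.77 for KZV28384, 5.98 for KZV49260, 4.58 for BGI_novel_G001158, 3.83 for KZV50303 and 3.10 for KZV29250, and 4.76 for KZV50299, which is not among the 10 genes. In each case the acclimated plants had the larger rise. For KZV49260 the value rests in part on FD libraries listed at 0, and for KZV29250 the call was lost when any of 5 single libraries was left out. The cause of these differences was not tested.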

How the results depend on the processing

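Under the alternatives run for single genes (another pseudocount, no filter, median-ratio scaling, a replicate block, each library left out, the 3 libraries at 18 weeks left out) none of the 56 called log2 fold changes of the ELIP profiles changed sign, and 12 fell short of the call under at least 1. The fit of the compared libraries alone and that with no minimum fold change were run for counts only. The counts of called profiles kept within 1.5 times of the main count under every alternative except those at 18 weeks. For A18D/A18 the count of 0 became 3 with median-ratio scaling and 1 without the 3 libraries that stood apart, and ran from 0 to 5 when single libraries were left out. For A18/F18 the count of 6 became 0 in the fit of the compared libraries alone and 3 without the 3 libraries, and ran from 0 to 6 when single libraries were left out. The 18-week interaction, called for 0 profiles, was called for 2 without the 3 libraries, and for 0 to 2 when single libraries were left out. Leaving out these 3 libraries was chosen after seeing the data, by the ELIP levels themselves. Omitting a high A18D and a low F18D library lowers A18D/F18D by the choice itself, so these values are no separate result.

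Changes of sign were limited to log2 fold changes that were not called. KZV28384 in FD/F was -0.025 with a pseudocount of 0.1 and ran from -1.01 to 0.89 when single libraries were left out. The corresponding ranges were -1.14 to 0.68 for KZV38649 in the interaction at the start, -0.12 to 2.75 for KZV27934 in A18/A, -1.85 to 0.15 for KZV27934 in F18/F, -0.32 to 1.44 for KZV50303 in A18D/A18, and, in A18D/F18D, -1.68 to 0.16 for KZV29250 and -1.21 to 0.84 for KZV50303. Without the 3 libraries KZV27934 in A18/A was -0.12, and A18D/F18D was -0.45 for BGI_novel_G001158, -0.44 for KZV49260, -0.58 for KZV20247 and -1.25 for KZV38649. The cause was not tested.

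The main fit did not pair the samples by replicate number, since in no comparison were all 3 correlations of same-numbered libraries above 0.1. This check cannot show that pairing was absent, and A4/A had correlations of 0.34, 0.12 and -0.03. With a replicate block all 19 counts of called profiles stayed within 1.5 times, and by limma the calls of KZV50303 in FD/F (adjusted p = 0.0513) and KZV27934 in F18D/F18 (adjusted p = 0.0544) were lost. With a pseudocount of 0.1 the median likeness was 0.928 within and 0.793 between annotation groups. The alternatives for promoter methylation were not run, since no methylation value of an ELIP gene is given. Depth could not be weighed, because FPKM hold no fragment numbers.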
